A study of Mus musculus with 8 samples.

Results

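The measurements described here are the changes between day 3 and day 6 in 3 osteoclast cultures of mouse bone marrow cells. They comprise the 6 arrays, of 8 in the series, whose titles name both M-CSF and RANKL, and each day 6 array was set against the day 3 array of the same culture. The cells were of strain C57BL6/J and were grown in α-MEM with 10% fetal bovine serum, with 50 ng/ml of M-CSF and 100 ng/ml of RANKL. The titles of 1 culture name no insert, and it is called M-CSF+RANKL here. The PSS1-WT and PSS1-LMS cultures received, 1 day after the start of treatment, a retrovirus carrying wild-type or mutant PSS1. PSS1 is the phosphatidylserine synthase encoded by Ptdss1. The labels do not give the mutation of PSS1-LMS or say whether the M-CSF+RANKL culture received an empty vector. The remaining 2 arrays, from a culture with M-CSF alone on days 3 and 6, served as the comparison without RANKL. Each culture and day has 1 array of unsorted cells, and nothing in the labels ties the cultures to separate animals. The spread used in the tests is therefore how far the day change varied between the 3 cultures, which also differ in what they express, and it may be partly technical. No p-value covers the spread between animals.

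M-CSF keeps macrophage precursors alive and dividing, and RANKL binds the receptor RANK on them, which signals through TRAF6, NF-κB and AP-1 to induce NFATc1, the transcription factor that switches on the osteoclast genes. The precursors then fuse into large cells with many nuclei, which attach to bone, acidify the space beneath them with a proton pump and digest the matrix with cathepsin K and other proteases. Bone marrow from which such cultures start also holds neutrophil precursors, monocytes and stromal cells, which can persist for some days beside the osteoclast precursors.

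Signals are log2 values as deposited and run up to a ceiling of 19.93. Values are listed with the M-CSF+RANKL culture first, PSS1-WT next and PSS1-LMS last. Differences are day 6 minus day 3 on the log2 scale, as the mean of the 3 cultures ± the standard error from limma, with p-values adjusted over 10871 measured genes and a threshold of 0.05. Gene lists were chosen with earlier results of these data known. Shares of list members set beside those of all genes are therefore descriptions and carry no test. The brightest of 23 background probe sets lay between 5.54 and 6.26 on the 6 arrays with RANKL. Where a signal on the dimmer day lay within the background of its array, the fold is given as "at least" against that background, and where the brighter day also lay within it no fold is given.

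The cultures with RANKL carried osteoclast markers on both days. Acp5, the tartrate-resistant acid phosphatase by which osteoclasts are stained, gave 19.91, 19.84 and 19.86 on day 3 and 19.92, 19.86 and 19.89 on day 6, against 5.14 and 6.38 with M-CSF alone. Calcr, the calcitonin receptor, lay between 12.77 and 14.39 on the arrays with RANKL and at 3.85 and 3.71 with M-CSF alone. Most markers of B cells, T and NK cells, erythroid cells and osteoblasts stayed under the expression filter, which 1 of 6, 2 of 9, 1 of 6 and 1 of 8 members on the array passed. Il7r, the IL-7 receptor chain of T cells, was one of them and rose from 6.46, 7.82 and 8.32 to 7.81, 8.34 and 9.38 (0.98, adjusted p = 0.0225; 0.79 and adjusted p = 0.0508 without the M-CSF+RANKL culture). Its part in other results was not tested. The number of genes over background ranged from 7353 to 8319 on the arrays with RANKL and was 7239 and 6305 with M-CSF alone, so the M-CSF array of day 6 had the fewest. That array also had the highest background, 7.13, against 6.29 with M-CSF on day 3 and 5.54 to 6.26 with RANKL. A higher background by itself lowers the count. Arrays of unsorted cells cannot tell fewer cells of a type apart from less RNA per cell, which applies to every group below.

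Between the days, 142 genes rose (1.31% of those measured) and 225 fell (2.07%), so 3.38% passed in all. Of these 367 genes, 366 changed in the same direction in all 3 cultures, beside 38.1% of all measured genes. The test uses the spread of the day change between these cultures, so a shared direction follows largely from passing it. Changes of at least 2-fold in every culture were seen for 32 genes upward (0.294%) and 44 downward (0.405%). The largest falls were of neutrophil granule genes and the largest rises of the contractile gene Acta2 and the macrophage protease Mmp12. Limits apply to the dim genes: 17 of the genes that rose and 28 of those that fell lay within background on all 6 arrays. No gene passed when signals within background were raised to it. This included genes far above background whose differences stayed the same, such as Nfatc1 (-0.99), Asns (-2.06) and Mmp12 (3.41). When genes with no signal over background were also left out, 12 higher and 16 lower passed, a setting chosen after the data were seen. In that setting 50 of 69 named genes lost their call without changing direction. With each array centred on its median the split was 125 higher and 356 lower, so that genes that fell made up 74% of the calls in place of 61.3%.

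**Figure D1:**
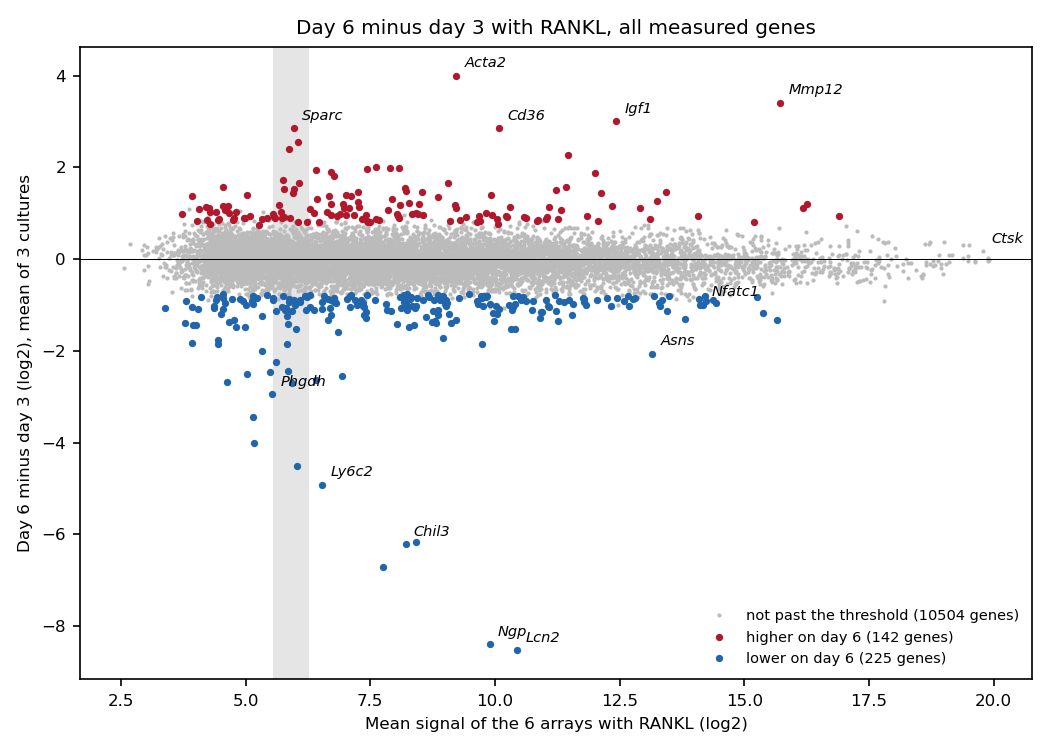
Day 6 minus day 3 (log2, mean of the 3 cultures with RANKL) for each of the 10871 measured genes against its mean signal on the 6 arrays (log2). Red points are the 142 genes that rose, blue points the 225 that fell, grey points the others, and the grey band spans the brightest background probe set of the 6 arrays; Lcn2 and Ngp are the lowest points and Acta2 the highest.

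Nfatc1 was lower on day 6. Its signals were 14.61, 14.74 and 14.67 on day 3 and 13.71, 13.75 and 13.60 on day 6. The days did not overlap, and all 3 cultures fell by nearly the same amount. The difference was -0.99 ± 0.20, a 1.98-fold fall (adjusted p = 0.0116). The call was lost with background raised (adjusted p = 0.172, or 0.0585 with genes that had no signal over it left out). All signals of Nfatc1 lay far above background, and its difference stayed at -0.99 in both settings. Why the call was lost was not tested. It was also lost in an additive fit of all 8 arrays (-0.28, adjusted p = 0.91). With M-CSF alone Nfatc1 went from 8.27 to 10.09, and the day changes differed by -2.81 ± 0.40 (limma interaction, adjusted p = 0.000199).

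Of the 23 measured genes of RANK signalling and its transcription factors, Nfatc1 and Fosl2 fell and none rose, beside 2.07% of all genes falling. Fosl2, which encodes the AP-1 subunit Fra-2, was at 13.22, 13.05 and 13.31 on day 3 and 12.31, 12.14 and 12.05 on day 6 (-1.03 ± 0.20, 2.04-fold lower, adjusted p = 0.0102). Its days did not overlap either, but it missed the threshold without the PSS1-LMS culture (-0.91, adjusted p = 0.0556). The receptor gene Tnfrsf11a (0.15, adjusted p = 0.769), the adaptor Traf6 (-0.46, adjusted p = 0.301) and the AP-1 gene Fos (0.31, adjusted p = 0.478) did not pass. The same held for Prdm1, a repressor of osteoclast inhibitors (-0.53, adjusted p = 0.175), and for Ppargc1b, a coactivator of mitochondrial genes (-0.65, adjusted p = 0.103). In all, 13 of the 23 were lower in every culture and 2 higher in every culture, beside 22.2% and 15.9% of all genes, and the median difference was -0.16, beside -0.03 over all genes. Among 15 measured inhibitors of osteoclast formation 2 rose, beside 1.31% of all genes, the ITIM receptors Lilrb4a (16.09, 16.51 and 16.67 to 16.94, 17.58 and 17.59; 0.95 ± 0.20, adjusted p = 0.0156) and Pirb (13.28, 13.67 and 13.80 to 14.84, 14.41 and 14.35; 0.95 ± 0.23, adjusted p = 0.0324). The days did not overlap for these genes. Lilrb4a did not pass without the PSS1-WT culture (0.89, adjusted p = 0.06), nor Pirb without the M-CSF+RANKL culture (0.65, adjusted p = 0.113).

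Genes of bone resorption kept high signals, and 1 of 20 passed the test, beside 3.38% of all genes. Ctsk, the collagen-degrading cathepsin, was at 19.81, 19.64 and 19.63 on day 3 and 19.89, 19.84 and 19.90 on day 6 (0.18 ± 0.20, adjusted p = 0.713). Mmp9 (-0.04, adjusted p = 0.943), Acp5 (0.02, adjusted p = 0.966) and the proton pump subunit Atp6v0d2 (-0.10, adjusted p = 0.848) did not pass, and their signals lay between 18.70 and 19.92. With M-CSF alone Atp6v0d2 went from 4.23 to 12.55, and the day changes differed by -8.42 (limma interaction, adjusted p = 1.22e-08). By that test 6 of the 20 genes had a lower and 2 a higher change with RANKL, beside 12.8% and 9.49% of all genes. Acp5, Ctsk and Mmp9 are close to the ceiling of the values, which leaves little room for a rise to be seen. Calcr (0.69 ± 0.27, adjusted p = 0.207; 1.12 and adjusted p = 0.00586 without the M-CSF+RANKL culture), the carbonic anhydrase gene Car2 (0.41 ± 0.22, adjusted p = 0.37) and the integrin gene Itgb3 (0.03 ± 0.24, adjusted p = 0.969) lay far below the ceiling and did not pass either. The member that fell was Slc9b2, a sodium-proton exchanger of osteoclasts, at 9.74, 8.93 and 9.36 on day 3 and 8.98, 7.65 and 8.69 on day 6 (-0.90 ± 0.21, adjusted p = 0.0282), with overlap between the days. It missed the threshold without the PSS1-WT culture (-0.71, adjusted p = 0.184). The median of the list was -0.09. None of 16 measured V-ATPase subunits passed with limma (0 higher and 1 lower at an unadjusted p under 0.05; median -0.09).

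Of 15 measured genes of cell fusion 1 rose, beside 1.31% of all genes rising. Cd81, a tetraspanin, was at 10.60, 10.62 and 11.97 on day 3 and 12.45, 12.30 and 14.05 on day 6, a 3.66-fold rise (1.87 ± 0.20, adjusted p = 4.1e-05). The PSS1-LMS culture was the highest on both days and the changes were alike in the 3 cultures. With M-CSF alone it was far brighter, at 17.55 and 18.02, and the change with RANKL exceeded that with M-CSF by 1.40 (adjusted p = 0.0221; 1.29 and adjusted p = 0.0517 without the PSS1-LMS culture). The fusion receptors Dcstamp (0.45 ± 0.20, adjusted p = 0.261) and Ocstamp (-0.79 ± 0.22, adjusted p = 0.0656) did not pass, but Ocstamp did without the PSS1-LMS culture (-1.06, adjusted p = 0.0154). In the list of podosome and sealing zone genes, the structures by which osteoclasts attach, 1 of 19 fell, beside 2.07% of all genes. It was Gsn, the actin-severing gelsolin, at 14.75, 14.24 and 14.37 on day 3 and 13.61, 12.74 and 13.11 on day 6 (-1.30 ± 0.20, 2.46-fold lower, adjusted p = 0.00159).

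**Figure D2:**
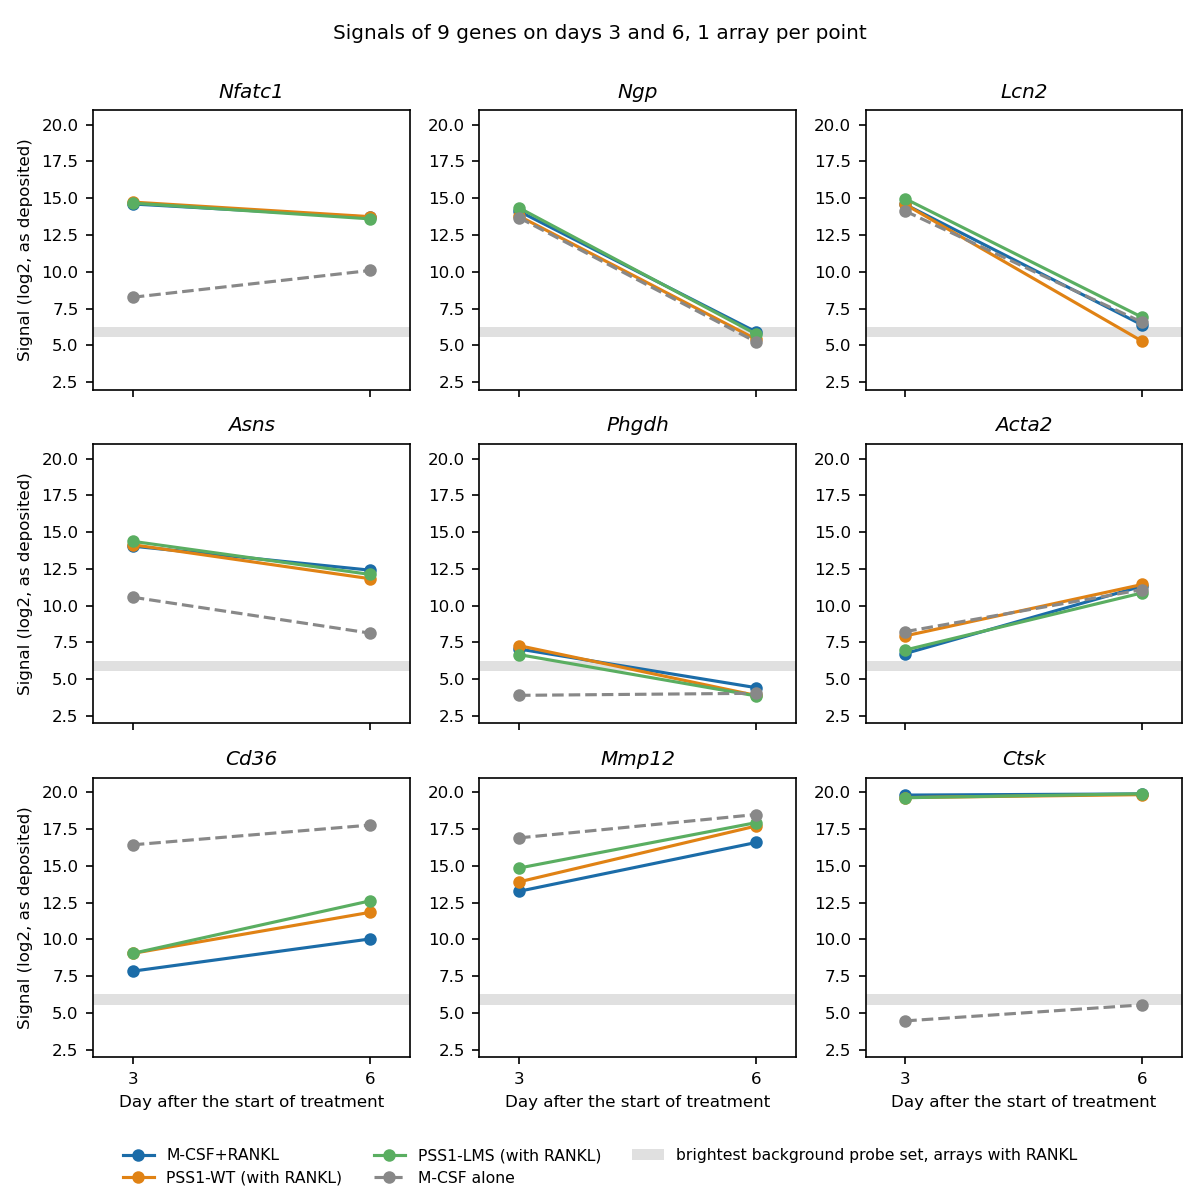
Signals (log2, as deposited) of 9 genes on day 3 and day 6 of treatment, 1 array per point, with solid lines for the 3 cultures with RANKL, a dashed line for M-CSF alone and a grey band from 5.54 to 6.26 for the brightest background probe set of the arrays with RANKL. Ngp and Lcn2 dropped to the band or near it in all 4 cultures, and Lcn2 ended above it in all but PSS1-WT. Acta2 rose, and Nfatc1 fell in the 3 cultures with RANKL while it was higher on day 6 with M-CSF alone.

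Neutrophil granule genes showed the largest falls. Of 22 such genes on the array 17 were measured, and 14 of these fell and none rose, beside 2.07% of all measured genes falling. Of the 17, 9 passed the expression filter through their signals on 1 of the days alone, and 4 of the 14 lay within background throughout. Ngp, the neutrophilic granule protein, was at 14.12, 13.79 and 14.35 on day 3 and 5.91, 5.41 and 5.76 on day 6. Each day 6 signal lay at or near background, and the fall was at least 290.9-fold (-8.40 ± 0.20, adjusted p = 4.02e-13). Lcn2, the iron-scavenging lipocalin of secondary granules, was at 14.58, 14.58 and 14.97 on day 3 and 6.38, 5.27 and 6.90 on day 6 (at least 346-fold lower; -8.53 ± 0.24, adjusted p = 2.69e-12). S100a8 and S100a9, which together form the antimicrobial protein calprotectin, fell at least 38.7-fold and at least 50.9-fold (-6.71 ± 0.25 and -6.17 ± 0.26).

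Their signals were 11.65, 10.58 and 11.06 on day 3 and 4.20, 4.64 and 4.34 on day 6 for S100a8. For S100a9 they were 12.01, 11.11 and 11.36, then 5.28, 4.62 and 6.08. All 6 signals of day 6 lay within background. Chil3, a chitinase-like protein of neutrophil precursors and some macrophages, fell at least 44.8-fold (11.33, 11.11 and 11.49 to 5.41, 5.02 and 4.86; -6.21 ± 0.21, adjusted p = 2.78e-11), and its near-identical neighbour Chil4 at least 2.54-fold (-4.0 ± 0.30), although probes may not tell this pair apart. The primary granule genes Elane, neutrophil elastase, and Mpo, myeloperoxidase, were dimmer on day 3, with means of 6.86 and 7.29. They fell at least 2.06-fold and 2.77-fold (-3.44 ± 0.21 and -2.71 ± 0.21). Mmp8, the neutrophil collagenase, stayed above background on both days and fell 2.69-fold (8.56, 9.07 and 9.63 to 6.87, 7.39 and 8.72, overlapping; -1.43 ± 0.22, adjusted p = 0.00145). Lyz2, the lysozyme that macrophages make as well, did not pass (0.38, adjusted p = 0.386).

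The summed linear signal of the list without Lyz2, as log2, ranged from 15.48 to 15.93 on day 3 and from 9.05 to 9.84 on day 6. With M-CSF alone it went from 15.58 to 11.91. On day 6 Ngp, Lcn2, S100a8, S100a9 and Chil3 lay within background there (5.16 to 6.56), so other members carried that sum. Ngp fell there too, from 13.68 to 5.23, and the change did not differ past the threshold from that with RANKL (0.06, adjusted p = 0.939). Of the 17 genes 3 differed, beside 12.8% of all genes with a lower change, all with the lower day change in the cultures with RANKL: S100a8, Chil3 and Csf3r, the G-CSF receptor, which went from 6.22 to 9.96 with M-CSF alone and did not pass with RANKL (-0.90, adjusted p = 0.055). The difference of Chil3, -1.33, did not pass without the PSS1-LMS culture (-1.12, adjusted p = 0.101), and that of S100a8 became -0.60 with background raised (adjusted p = 0.786). The median difference of the list was -2.47, and -0.48 with signals within background raised to it. With 1 culture left out 13 to 16 members fell. When background was raised and genes with no signal over it were left out, the setting chosen after the data were seen, 5 of 11 fell.

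The promoters of the granule genes are shown because C/EBP factors are known to drive this set. RefSeq promoters of build GRCm38.p6, 250 bases before to 50 after the start, were found for 21 of the 22 genes. TTGCNNAA, searched on both strands, occurred for 8 of these genes (Ngp, Ltf, Lcn2, S100a9, Mmp8, Retnlg, Fcnb and Ms4a3) and for 12.2% of all genes with a promoter. S100a8, Chil3, Elane and Mpo fell as well and have no match in this window, while Fcnb and Ms4a3 have one and stayed under the expression filter. The 2 promoters below, of the genes with the largest falls, are chr9:110419558-110419857 (+ strand) and chr2:32387690-32387989 (- strand). Capitals mark the matches, of which Ngp has 2 and Lcn2 1.
Ngp: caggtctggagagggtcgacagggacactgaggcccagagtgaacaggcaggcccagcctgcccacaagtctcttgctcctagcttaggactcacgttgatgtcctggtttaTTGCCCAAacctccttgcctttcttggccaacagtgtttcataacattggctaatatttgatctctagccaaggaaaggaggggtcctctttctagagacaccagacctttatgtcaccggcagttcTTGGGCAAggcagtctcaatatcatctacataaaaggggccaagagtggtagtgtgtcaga
Lcn2: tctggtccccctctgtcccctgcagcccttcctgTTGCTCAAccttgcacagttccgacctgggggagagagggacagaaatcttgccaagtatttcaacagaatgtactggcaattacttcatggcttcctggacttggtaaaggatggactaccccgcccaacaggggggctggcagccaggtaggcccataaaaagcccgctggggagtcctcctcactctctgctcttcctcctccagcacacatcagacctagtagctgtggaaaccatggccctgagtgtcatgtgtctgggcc

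Of 10 measured genes of monocytes and progenitors, 4 fell and none rose, beside 2.07% of all genes falling. Of the 10, 4 reached the expression filter with RANKL on 1 of the days alone. The median difference was -0.80, and 0.0 with signals within background raised to it. When background was raised and genes with no signal over it were left out, 1 of 6 fell. Ly6c2 and Ly6c1, surface antigens of inflammatory monocytes, fell at least 8.99-fold and 5.51-fold. Ly6c2 was at 9.14, 8.81 and 9.04 on day 3 and within background at 4.05, 4.55 and 3.62 on day 6 (-4.92 ± 0.23, adjusted p = 1.94e-09). These 2 genes are close copies, and their values may not be independent. Ccr2, the chemokine receptor of those monocytes, and Kit, a stem cell factor receptor, fell by 1.48 and 1.02, with nearly all signals within background. Kit missed the threshold without the PSS1-WT culture (-0.89, adjusted p = 0.0799) and without the PSS1-LMS culture (-0.79, adjusted p = 0.126).

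Of 17 measured macrophage genes 5 rose and none fell, beside 1.31% of all genes rising: Cd14, C1qa, C1qb, Mrc1 and Marco. Cd14, the lipopolysaccharide co-receptor, was at 7.25, 6.42 and 7.09 on day 3 and 8.06, 7.51 and 8.10 on day 6 (0.97 ± 0.20, 1.96-fold, adjusted p = 0.0135). Mrc1, the mannose receptor, was at 9.26, 9.11 and 9.97 and then 9.69, 10.49 and 11.04 (0.96 ± 0.22, adjusted p = 0.0277), with overlap between the days. The scavenger receptor Marco rose at least 1.24-fold (1.18 ± 0.21, adjusted p = 0.00456), from signals within background to 5.97, 6.08 and 6.71. The macrophage surface receptor Adgre1 (0.42, adjusted p = 0.358) and the M-CSF receptor Csf1r (-0.26, adjusted p = 0.554) did not pass, and 4 members were lower and 10 higher in every culture, beside 22.2% and 15.9% of all genes. With 1 culture left out 3 or 4 members rose. When background was raised and genes with no signal over it were left out, none of 14 did. C1qa and C1qb did not pass without the M-CSF+RANKL culture (0.78 and 0.82; adjusted p = 0.0558 and 0.0505). C1qa and Mrc1 did not pass without PSS1-WT (0.79 and 0.75; adjusted p = 0.13 and 0.161), nor Mrc1 without PSS1-LMS (0.91, adjusted p = 0.0566). All 5 genes stayed far under their signals with M-CSF alone on day 6, which were between 12.13 and 18.76.

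Outside the lists, the largest rise of a macrophage product was that of Mmp12, the macrophage elastase. Its signals were 13.27, 13.91 and 14.85 on day 3 and 16.59, 17.71 and 17.94 on day 6. The days did not overlap, and the rise was 10.6-fold (3.41 ± 0.21, adjusted p = 5.87e-08). With M-CSF alone it went from 16.90 to 18.49, less by 1.82 (adjusted p = 0.00654). Igf1, an insulin-like growth factor, was at 10.49, 10.81 and 11.50 on day 3 and 12.95, 13.91 and 14.96 on day 6 (8.04-fold; 3.01 ± 0.22, adjusted p = 5.74e-07). In the list of osteoclast-derived coupling factors it was the 1 of 10 measured genes that rose, beside 1.31% of all genes. With M-CSF alone it was near the ceiling on both days, at 19.56 and 19.78. Csf1, which encodes M-CSF itself, rose 3.96-fold (6.95, 6.90 and 6.82 to 8.77, 9.12 and 8.74; 1.99 ± 0.20, adjusted p = 2.24e-05). Cd300ld, an immunoglobulin-like receptor of myeloid cells, rose 4.84-fold, and the membrane protein gene Tmem176b 3.94-fold and the secreted phospholipase Pla2g2d 3.92-fold.

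**Figure D3:**
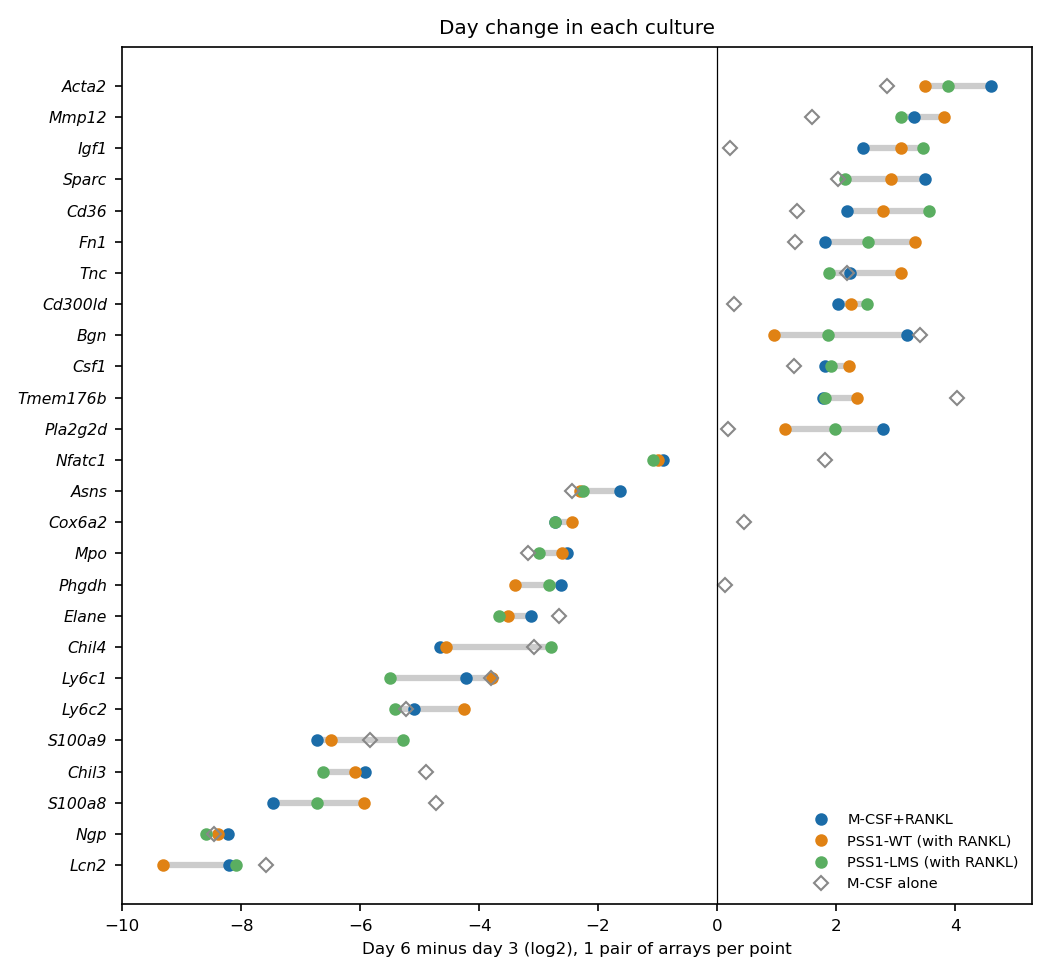
Day 6 minus day 3 (log2) in each culture, 1 pair of arrays per point, for the 12 largest rises, the 12 largest falls, and Nfatc1 and Asns; filled circles are the 3 cultures with RANKL, joined by a grey bar, and open diamonds M-CSF alone. All filled circles of a gene lie on one side of 0, which was a condition for choosing the rises and falls. Nfatc1, Phgdh and Cox6a2 have their diamonds on the opposite side, at 1.82, 0.14 and 0.46.

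The list of amino acid synthesis and uptake holds mostly known targets of the stress-responsive factor ATF4. Of 25 measured members 16 fell and none rose, beside 2.07% of all genes falling, and 20 were lower in every culture, beside 22.2%. The median was -0.94, or -0.52 with signals within background raised to it. Of the 25, 3 reached the expression filter with RANKL on 1 of the days alone. Asns, asparagine synthetase, was at 14.04, 14.14 and 14.37 on day 3 and 12.41, 11.83 and 12.12 on day 6. The days did not overlap, and the fall was 4.18-fold (-2.06 ± 0.21, adjusted p = 2.54e-05). In the serine pathway, Phgdh, its first enzyme, went from 7.05, 7.28 and 6.67 to within background at 4.42, 3.89 and 3.86 (at least 2.26-fold lower; -2.95 ± 0.21, adjusted p = 5.15e-07). Psat1, the second, fell 3.58-fold (10.63, 10.66 and 10.71 to 9.07, 8.19 and 9.21; -1.84 ± 0.23, adjusted p = 0.000209). Psph, the last enzyme of that pathway, did not pass (-0.04, adjusted p = 0.952).

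Other enzymes of amino acid and one-carbon metabolism also fell. Aldh18a1, which starts proline synthesis, fell 3.30-fold (9.93, 9.59 and 9.94 to 8.08, 8.04 and 8.17; -1.72 ± 0.20, adjusted p = 0.000106). Cth, which makes cysteine, fell at least 1.90-fold (-1.84 ± 0.24), and Shmt2, which makes one-carbon units in mitochondria, 2.43-fold (-1.28 ± 0.25, adjusted p = 0.00819). Among the carriers, Slc7a5, Slc7a1, Slc7a3, Slc1a5 and Slc6a9 fell, by between 0.91 and 1.24. Slc7a11, the cystine carrier (0.62, adjusted p = 0.108), and Slc3a2, the partner chain of Slc7a5 (-0.26, adjusted p = 0.587), did not pass. Atf4 itself (12.79, 12.24 and 12.49 to 12.68, 11.92 and 11.78; -0.38, adjusted p = 0.375) and the stress genes Ddit3 (-0.16, adjusted p = 0.751) and Trib3 (-0.22, adjusted p = 0.628) did not pass. With 1 culture left out 11 to 15 members fell, the fewest without PSS1-LMS. When background was raised and genes with no signal over it were left out, 4 of 20 fell. Mthfd2, a folate enzyme that fell by 0.92 (adjusted p = 0.0369), was one that did not pass without PSS1-LMS (-0.62, adjusted p = 0.315).

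With M-CSF alone the list had a median of -0.20, and the day change was lower with RANKL for 5 members and higher for 3, beside 12.8% and 9.49% of all genes. Phgdh was within background on both days with M-CSF alone (3.90 and 4.04), and the changes differed by -3.09 (adjusted p = 0.000174), or -0.05 with background raised. The change of Asns was -2.43 with M-CSF alone, and the difference of 0.37 did not pass (adjusted p = 0.572).

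The promoters of this list are shown because ATF4 and its C/EBP partners are known to act through a composite element. TGATGNAA on both strands occurred for 8 of the 22 list genes with a RefSeq promoter (Asns, Chac1, Trib3, Atf3, Slc7a11, Slc1a4, Nupr1 and Vldlr) and for 4.51% of all genes with a promoter. Asns, Chac1 and Nupr1 fell, while Trib3, Atf3, Slc7a11 and Vldlr did not pass and Slc1a4 was under the filter. Chac1, which breaks down glutathione, fell by 1.33 (adjusted p = 0.00183) with all signals within background. Phgdh, Psat1 and Aldh18a1, with larger falls than Chac1, have no match. The promoters of Asns, chr6:7693160-7693459 (- strand), and Chac1, chr2:119350992-119351291 (+ strand), have 1 match each, in capitals.
Asns: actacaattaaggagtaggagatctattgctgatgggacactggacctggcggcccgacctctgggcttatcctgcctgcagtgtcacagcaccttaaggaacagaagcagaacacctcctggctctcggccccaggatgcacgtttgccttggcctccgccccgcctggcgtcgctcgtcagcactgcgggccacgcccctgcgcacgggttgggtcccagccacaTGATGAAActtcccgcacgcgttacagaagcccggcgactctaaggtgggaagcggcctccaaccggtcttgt
Chac1: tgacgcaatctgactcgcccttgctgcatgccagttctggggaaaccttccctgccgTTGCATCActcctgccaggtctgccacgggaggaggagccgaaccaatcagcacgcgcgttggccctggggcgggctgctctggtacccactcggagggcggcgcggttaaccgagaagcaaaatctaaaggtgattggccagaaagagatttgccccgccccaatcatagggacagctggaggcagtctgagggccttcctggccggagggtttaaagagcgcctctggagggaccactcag

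Of 13 measured genes of the unfolded protein response 2 fell and none rose, and 10 were lower in every culture (median -0.43), beside 2.07% and 22.2% of all genes. Xbp1, a transcription factor of that response, fell by 0.84 and Herpud1, a membrane protein of protein degradation in the endoplasmic reticulum, by 0.79 (adjusted p = 0.0386 and 0.0468). Neither passed without PSS1-WT (-0.68 and -0.67; adjusted p = 0.211 and 0.227) or without PSS1-LMS (-0.84 and -0.79; adjusted p = 0.0936 and 0.129). The chaperone Hspa5 did not pass (-0.47, adjusted p = 0.243).

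Of 32 contractile and matrix genes on the array 19 were measured, of which 10 rose and none fell, beside 1.31% of all genes rising; 15 had days that did not overlap, upward, beside 8.02% of all genes. Acta2, smooth muscle actin, was at 6.74, 7.94 and 6.98 on day 3 and 11.33, 11.44 and 10.87 on day 6. All 3 cultures ended close together, and the rise was 16.0-fold (4.0 ± 0.23, adjusted p = 2.58e-08). Sparc, a matrix glycoprotein, rose at least 2.72-fold, from within background to 7.60, 7.86 and 6.70 (2.86 ± 0.24, adjusted p = 2.52e-06). Fn1, fibronectin, rose at least 2.60-fold, from within background to 6.96, 7.69 and 7.32 (2.56 ± 0.25, adjusted p = 1.51e-05). The proteoglycan Bgn rose at least 3.93-fold, with the widest spread between cultures of these (3.19, 0.95 and 1.87).

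Thbs1, thrombospondin, stayed above background and rose 1.95-fold (6.69, 6.49 and 6.87 to 7.56, 7.90 and 7.48; 0.96 ± 0.22, adjusted p = 0.0232). Igfbp7 rose at least 1.75-fold, and Tnc, the matrix protein tenascin C, which is not in the list, at least 2.19-fold. Tagln, Postn, Ccn1 and Pdgfrb passed with most signals within background, and Postn did not pass without PSS1-LMS (0.90, adjusted p = 0.0586). The defining fibroblast collagens were dim: Col1a1 (4.66 to 5.30) and Col1a2 (3.89 to 5.26) lay within background on all 6 arrays and did not pass, and Col3a1, Dcn, Lum and Thy1 were under the filter. The summed linear signal of the list, as log2, ranged from 12.79 to 13.04 on day 3 and from 13.47 to 14.09 on day 6, and went from 10.99 to 12.28 with M-CSF alone. The median was 0.87, and 0.10 with signals within background raised to it. Of the 19, 3 reached the expression filter with RANKL on 1 of the days alone. Without the PSS1-WT culture 8 members rose, and 10 without either of the others. When background was raised and genes with no signal over it were left out, 1 of 12, Acta2, rose. Acta2 rose with M-CSF alone too (8.23 to 11.09), and the changes did not differ past the threshold (1.14, adjusted p = 0.0889). In the list 1 gene differed, Thbs1, beside 12.8% of all genes with a lower change. The rise of Thbs1 was smaller with RANKL than with M-CSF alone (-2.25, adjusted p = 0.00186). With background raised that difference was -1.01 (adjusted p = 0.175).

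**Figure D4:**
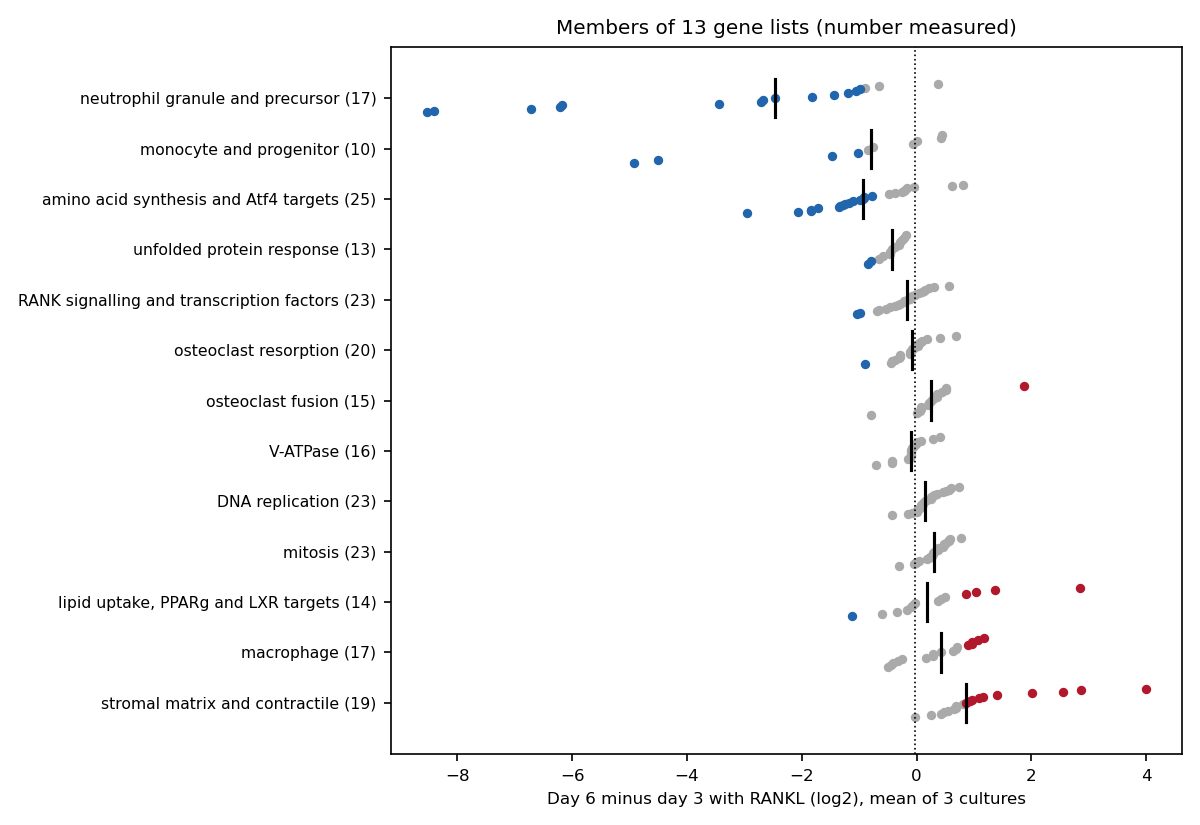
Day 6 minus day 3 with RANKL (log2, mean of 3 cultures) for the measured members of 13 gene lists, whose number is in brackets. Red points rose, blue points fell and grey points did not pass the test; black bars are list medians and the dotted line is the median of all genes, -0.03. Neutrophil and amino acid genes spread to the left of it and contractile and matrix genes to the right, while V-ATPase, DNA replication and mitosis genes hold grey points alone.

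Genes of lipid uptake gave 4 rises and 1 fall among 14 measured, beside 1.31% and 2.07% of all genes. Cd36, the scavenger receptor for fatty acids, oxidised lipoproteins and phosphatidylserine, was at 7.84, 9.05 and 9.05 on day 3 and 10.03, 11.84 and 12.62 on day 6. The PSS1 cultures were above the M-CSF+RANKL culture on both days. The rise was 7.21-fold (2.85 ± 0.25, adjusted p = 2.9e-06), and it exceeded that with M-CSF alone, where Cd36 was brighter at 16.43 and 17.77, by 1.5 (adjusted p = 0.0384). That difference did not pass without the PSS1-LMS culture (1.15, adjusted p = 0.0923). Fabp5, a fatty acid carrier, rose 2.58-fold (6.41, 6.18 and 6.71 to 7.68, 7.91 and 7.82; 1.37 ± 0.21, adjusted p = 0.00145). Pparg, the nuclear receptor that controls Cd36 and Fabp genes, rose at least 1.22-fold, from within background to 6.18, 5.99 and 6.52 (1.03 ± 0.21, adjusted p = 0.0108). Smpdl3a, a phosphodiesterase, rose by 0.87 (adjusted p = 0.0382) but not past the threshold without the M-CSF+RANKL culture (0.64, adjusted p = 0.118). Abcg1, a sterol exporter induced by LXR, fell 2.17-fold (8.44, 8.53 and 8.47 to 7.45, 7.27 and 7.37; -1.12 ± 0.20, adjusted p = 0.00509), whereas Abca1, another such exporter, did not pass (-0.06, adjusted p = 0.937). With M-CSF alone Abcg1 and Abca1 went up by 2.15 and 4.88, and both changes differed from those with RANKL (adjusted p = 6.11e-05 and 6.01e-06; Abca1 0.0722 with background raised).

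Members of other lists passed as well. Gas6, a ligand that bridges phosphatidylserine to its receptors, rose at least 2.94-fold (6.53, 5.57 and 5.46 to 7.70, 7.72 and 7.61; 1.82 ± 0.23, adjusted p = 0.000245). Its receptors Mertk (0.68, adjusted p = 0.105) and Axl (-0.19, adjusted p = 0.737) did not pass. Tfrc, the transferrin receptor, rose 2.29-fold (16.20, 15.62 and 15.18 to 17.08, 16.78 and 16.73; 1.20 ± 0.21, adjusted p = 0.00456). Ctsl, a lysosomal protease, rose 2.76-fold (11.99, 12.87 and 13.22 to 13.38, 14.43 and 14.65; 1.46 ± 0.20, adjusted p = 0.000509). The anti-apoptotic gene Bcl2a1b, one of several near copies, rose 3.18-fold (1.67 ± 0.22). H2-Ab1, an MHC class II chain, fell 2.45-fold (8.61, 7.28 and 8.29 to 6.59, 6.89 and 6.83; -1.29 ± 0.26, adjusted p = 0.012). Cox6a2, a muscle form of a respiratory chain subunit outside the lists, fell at least 3.74-fold (7.84, 7.25 and 8.09 to 5.10, 4.82 and 5.38; -2.63 ± 0.20, adjusted p = 7.33e-07).

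Genes of cell division did not pass. Of 23 measured genes of DNA replication none passed with limma (5 higher and 0 lower at an unadjusted p under 0.05; median 0.14), and of 23 of mitosis none (8 higher and 0 lower; median 0.31). With M-CSF alone the medians were -1.99 and -1.52. By the interaction test the day change was higher with RANKL for 19 of the replication genes and 17 of the mitosis genes and lower for none, beside 9.49% of all genes higher and 12.8% lower. Mcm2, part of the replicative helicase, differed by 3.05 (adjusted p = 0.000145, or 0.0606 with background raised; -0.15 with RANKL and -3.20 with M-CSF), and the proliferation marker Mki67 by 2.49 (adjusted p = 0.000561; 0.47 and -2.02). With 1 culture with RANKL left out, 19 or 20 replication genes and 17 or 18 mitosis genes were higher. The M-CSF side is a single pair of arrays, assumed to vary like the others.

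Interferon-stimulated genes also parted from the M-CSF culture. None of 15 passed with RANKL (0 in either direction at an unadjusted p under 0.05; median -0.04), with 12 within background on all 6 arrays, while the median with M-CSF alone was 1.80 and 11 of the 15 differed, all lower with RANKL, beside 12.8% of all genes. The phosphatidylserine and phosphatidylethanolamine enzymes, of which 11 were measured, had no member past the threshold (0 higher and 1 lower at an unadjusted p under 0.05). Ptdss1, the gene on the retroviruses, was at 9.56, 18.91 and 18.79 on day 3 and 10.36, 18.06 and 17.50 on day 6. It was higher on day 6 in the M-CSF+RANKL culture and lower in both PSS1 cultures, by 0.79, -0.85 and -1.30 (adjusted p = 0.491 over the 3). No member passed in the lists of cholesterol synthesis (19 measured), glycolysis (19), mitochondrial respiration (22), cytokines (12) or calcium signalling (15) either, which had 3, 1, 0, 0 and 0 members higher and 2, 6, 7, 0 and 1 lower at an unadjusted p under 0.05.

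The M-CSF pair shares no array with the 3 pairs with RANKL. Of the 142 genes that rose with RANKL, 57 (40.1%) were at least 2-fold higher on day 6 with M-CSF alone, beside 14.9% of all measured genes. Of the 225 that fell, 65 (28.9%) were at least 2-fold lower, beside 12.9%. These are descriptions of 1 pair of arrays, with no replicate. The M-CSF pair changed more over all genes, with a standard deviation of 1.07 against 0.51, 0.56 and 0.51 in the cultures with RANKL.

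**Figure D5:**
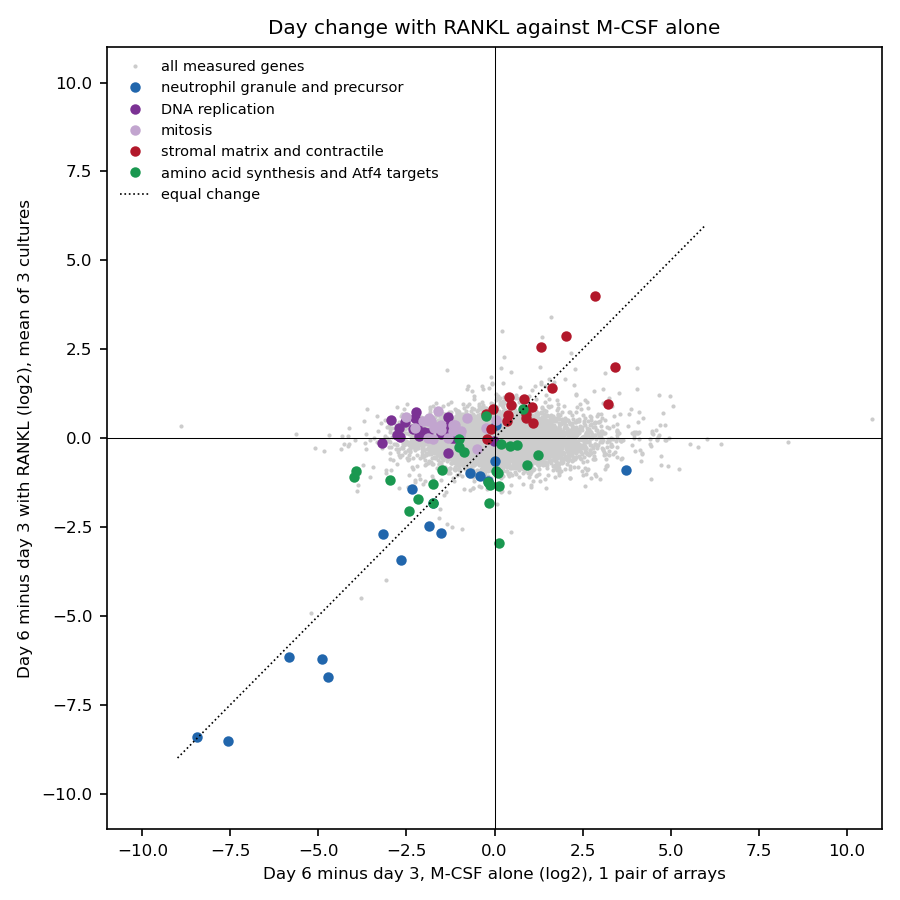
Day 6 minus day 3 with RANKL (log2, mean of 3 cultures) against the same with M-CSF alone (log2, 1 pair of arrays) for all measured genes in grey and the members of 5 lists in colour; the dotted line marks equal change. Of the neutrophil genes with the largest falls, Ngp and S100a9 lie near the line at the lower left and Lcn2, S100a8 and Chil3 below it. Most DNA replication and mitosis genes lie left of 0 near the horizontal axis.

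Across all measured genes, the day changes of the 3 cultures with RANKL had Pearson correlations of 0.378 (M-CSF+RANKL and PSS1-WT), 0.383 (M-CSF+RANKL and PSS1-LMS) and 0.512 (the PSS1 cultures). Those with the M-CSF culture were 0.177, -0.0294 and 0.0302. Genes are not independent replicates, and these values carry no test. Changes of at least 2-fold were seen for 197, 232 and 183 genes upward and for 229, 393 and 280 downward in the 3 cultures. The amino acid list had medians of -0.61, -0.83 and -1.17 in them, the neutrophil list -2.52, -1.68 and -2.65, and the contractile and matrix list 0.96, 0.85 and 0.88. With 1 pair of arrays per culture, differences between these values were not tested.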

How the data were processed

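RNA from cultures of mouse bone marrow cells was hybridised to 8 Affymetrix arrays, starting from 500 ng per sample and labelling the cDNA with biotin, per the labels' protocols. The deposited values are log2 signals for 28846 features; the sources used here do not give how the authors summarised and normalised them, and the scale was inferred from their range. They were used as deposited. Clusters with 1 gene symbol gave 19505 genes, the brightest cluster standing for a gene, and 10871 counted as measured because the highest of 8 signals reached the table median of 4.86. Day 6 minus day 3 was fitted on the 6 arrays with RANKL with limma 3.58.1 in R 4.3.3 (lmFit, eBayes), culture and day as terms, with 2 residual degrees of freedom and 13.3 from the variance shared by all genes. A second fit of all 8 arrays tested the day change with RANKL against that with M-CSF (2 residual degrees of freedom). Adjustment was by Benjamini-Hochberg, and the fits were tested on simulated data. Background was the brightest of 23 background probe sets of each array.

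Pairing by culture comes from the titles. The members, and the 34 gene lists, were chosen with earlier results of these data known. The genes named are the 5 markers Nfatc1, Ngp, Acta2, Asns and Cd36, the 12 largest rises and falls above background, up to 5 passing members of each list with its defining genes, and the 8 largest differences from M-CSF in each direction among genes that also passed the day test; other list members were named after their values were seen. Alternatives covered scaling, filter, background, culture term, arrays and leaving out each culture; list members without a single-symbol cluster were not analysed here. The number of arrays limits the precision.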

Additional observations from a re-analysis of the deposited data

Results flagged for a closer look

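The day change with RANKL differed from that with M-CSF alone by the limma interaction test for 54 of the genes named. Each value is the log2 day change with RANKL minus that with M-CSF; the M-CSF side is 1 pair of arrays, so chance variation of that pair enters every value. With signals within background raised to it, 32 of the 54 did not pass.

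Genes with the lower change in the cultures with RANKL include Nfatc1 (-2.81, adjusted p = 0.000199), the serine enzyme Phgdh (-3.09), the respiratory subunit Cox6a2 (-3.08), S100a8 (-1.97), Chil3 (-1.33) and Tmem176b (-2.06). Among genes that also passed the day test, Fcgrt, the neonatal Fc receptor, had the lowest value (-6.11, adjusted p = 3.83e-07), going from 7.11 to 12.36 with M-CSF alone and from 7.01, 7.0 and 7.25 to 6.42, 5.86 and 6.37 with RANKL. The chemokine receptor Cxcr4 (-5.58), Plxdc2 (-4.16), Pgap1 (-4.12), Mfsd12 (-4.0), Rgl1 (-3.96), Tns1 (-3.91) and the lysosomal ATPase Atp13a2 (-3.87) followed. Cxcr4 was within background on all day 6 arrays with RANKL, on 1 of day 3 and with M-CSF on day 3, so its size is uncertain. Of the other named genes, Atp6v0d2 (-8.42), Abca1 (-4.93), Csf3r (-4.64), Marco (-3.81), Abcg1 (-3.27), Herpud1 (-2.93), C1qa (-2.44), Mertk (-2.26), Thbs1 (-2.25), Adgre1 (-2.13) and Gsn (-2.10) had lower changes with RANKL. So had Fabp5 (-1.71), Cth (-1.66), Nupr1 (-1.48), Smpdl3a (-1.48), Mrc1 (-1.47), Prdm1 (-1.40), Xbp1 (-1.30), Fosl2 (-1.24) and Acp5 (-1.22). Acp5 lies at the ceiling with RANKL and within background with M-CSF on both days.

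Genes with the higher change with RANKL were Igf1 (2.79), Cd300ld (1.99), Mmp12 (1.82), Pla2g2d (1.78) and Cd36 (1.5). Igf1 was close to the ceiling with M-CSF (19.56 and 19.78), where a rise could hardly be seen. Among genes that also passed the day test, the highest values were those of Fabp7, a fatty acid binding protein (3.65), Osgin2 (3.45), Rgs1, a regulator of G protein signalling (3.24), the folate enzyme Mthfd2 (3.02), Pclaf, a PCNA partner (3.00), the amino acid carrier Slc7a5 (2.89) and the urokinase gene Plau (2.87). Mthfd2, Slc7a5 and Plau were lower on day 6 in both, with differences of -0.92, -1.10 and -0.98 with RANKL against -3.94, -4.0 and -3.85 with M-CSF alone. On day 6 with M-CSF alone Fabp7 (6.92), Osgin2 (5.72), Mthfd2 (6.20) and Slc7a5 (6.22) lay within background, so the sizes of their differences are uncertain. Other named genes were Mcm2 (3.05), Mki67 (2.49), Ccr2 (2.41), Lilrb4a (1.85), Ctsl (1.82), Slc7a1 (1.80), Cd81 (1.40) and Fos (1.18).

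Without the PSS1-LMS culture 7 of the 54 did not pass, among them Cd36 (1.15, adjusted p = 0.0923), Chil3 (-1.12, adjusted p = 0.101), Fosl2 (-1.13, adjusted p = 0.0987), Acp5 (-1.23, adjusted p = 0.0676) and Cd81 (1.29, adjusted p = 0.0517). Fos did not pass with any 1 culture left out (1.07 to 1.30), nor Xbp1 without PSS1-WT (-1.14, adjusted p = 0.0693) or PSS1-LMS (-1.30). With background raised, the values of Cth, Phgdh, S100a8 and Cox6a2 were -0.00, -0.05, -0.60 and -0.60.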

How the results depend on the processing

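The counts of 142 genes higher and 225 lower moved under several settings. Raising signals within background gave 0 and 0. With genes that had no signal over background also left out, 12 and 16 passed, an alternative chosen after the data were seen. The cause of this loss was not tested. With no replicate block (the pairing by culture dropped) 69 and 110 passed, and with all 8 arrays in one additive fit 11 and 20. No filter left 132 lower, centring 356 lower and a trend in the shared variance 339 lower. Leaving out 1 culture gave 123 to 241 higher and 147 to 437 lower, the most without M-CSF+RANKL; with 2 cultures left the test rests almost wholly on the shared variance. The counts that differed from M-CSF, 1032 higher and 1393 lower, became 438 and 636 with background raised.

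Of 72 named genes that passed, 69 still passed after centring, 66 after quantile normalisation, 56 with no filter, 46 without the replicate block and 56 to 66 with 1 culture left out. With background raised 0 of 72 passed, 19 of 69 with genes that had no signal over it left out, and 20 of 72 in the fit of all 8 arrays, where 4 turned. Without the block the calls of Cd81 (adjusted p = 0.054), Cd14 (0.0752) and Ctsl (0.0562), among others, were lost. In the fit of all 8 arrays the sign turned for Fabp7 (-0.04), Fcgrt (0.66), Cxcr4 (0.26), Mfsd12 (0.14), Mmp9 (0.19) and Atp6v0d2 (2.0). Of genes near 0, Acp5 turned after centring (-0.05) and quantile normalisation (-0.02), Itgb3 after centring (-0.05) and with 1 culture left out (-0.25 to 0.38), as did Mmp9 (-0.08 to 0.01) and Oscar (-0.18 to 0.37). The difference of Acp5 from M-CSF turned to 0.02 with background raised. The cause was not tested.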
